A study of Mus musculus with 3 samples.

Results

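The 10 genes described here are used as markers of callosal projection neurons. They are grouped as effectors, apart from the transcription factors that set neuronal identity, although Cited2 encodes a transcriptional coregulator. They are Inhba, Ptn, Lpl, Nectin3, Chn2, Frmd4b, Limch1, Btg1, Cited2 and Hspb3. Every ATAC-seq peak inside their gene bodies or within 10 kb on either side was taken, with gene bodies from RefSeq on GRCm38.p6, the build called mm10. This gave 162 of the 134018 peaks of CPN 1, 193 of the 158779 peaks of CPN 2 and 101 of the 98067 peaks of CSMN. Merged over the 3 lists, these peaks formed 227 of 204313 regions. No window reached another protein-coding gene.

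Chromatin accessibility had been measured by ATAC-seq, in which a transposase inserts adapters into open DNA, in neurons sorted by flow cytometry from mouse brain. Callosal projection neurons, which connect the hemispheres through the corpus callosum, gave 2 libraries (CPN 1 and CPN 2), and corticospinal motor neurons, which project to the spinal cord, gave 1 library (CSMN). Sorts are named biological replicates in the labels, with no treatment or genotype. Strain, age, cortical area and the markers used for sorting are not stated in the labels. With 1 CSMN library no test between the cell types was possible, and the difference between CPN 1 and CPN 2 was the only spread between replicates.

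Open chromatin at a gene falls mostly at its transcription start and at distal elements such as enhancers, which are often in introns or between genes. Starts, above all those rich in CpG, tend to be open in many cell types, whereas distal elements differ more between cell types. The markers studied here act at several points of neuronal life. Activin A and pleiotrophin are secreted growth factors, lipoprotein lipase handles lipid supply, nectin-3 holds cells together, and β-chimaerin, FRMD4B and LIMCH1 act near the cytoskeleton.

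As a check of the labels, start peaks were counted at marker genes. The callosal and upper layer markers Cux1, Cux2, Lhx2 and Pou3f2 had one in every library. The 4 subcerebral markers, among them Fezf2 and Bcl11b, also had one in every library, so open starts at these genes did not separate the cell types. Of 4 excitatory neuron markers, 3 had a start peak in CPN 1 and 4 in CPN 2, against 2 in CSMN. Of markers of other cells, start peaks were found in every library at 2 of 4 astrocyte genes, 3 of 4 oligodendrocyte genes, 3 of 3 endothelial genes and 3 of 3 interneuron genes. Microglial markers had them at 3, 2 and 2 of 4 genes in CPN 1, CPN 2 and CSMN. Gfap, Aqp4, Mog and C1qa had no start peak in any list. Of all genes with a listed start, 65.0% had a start peak in every library. The part of other cells in the results was not tested. In sorted bulk samples, a weaker or missing peak from fewer cells with the site open cannot be told apart from less opening per cell.

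The sequences around the listed starts of Frmd4b and Limch1 are shown because internal starts of both genes are described below. A peak was present in some libraries only at a Frmd4b start and at no Limch1 start. Chn2, which also has starts with a peak in some libraries only, is not shown. The start sequences of Btg1 and Hspb3 are shown because their start peaks had the highest folds in CPN 1. Each runs 5′ to 3′ on the gene's strand from 250 bases before to 50 after the start and comes from RefSeq on GRCm38.p6. Capitals mark matches, on either strand, to 8 short motifs: the E-box CANNTG, the NFI-type motif TTGGCA, the CRE-type motif TGACG, the AP-1 motif TGANTCA, the SP1 motif GGGCGG, the TATA box TATAAA, the CCAAT box and the homeodomain motif TAATTA.
Frmd4b, first listed start (chr6:97617608-97617907, minus strand): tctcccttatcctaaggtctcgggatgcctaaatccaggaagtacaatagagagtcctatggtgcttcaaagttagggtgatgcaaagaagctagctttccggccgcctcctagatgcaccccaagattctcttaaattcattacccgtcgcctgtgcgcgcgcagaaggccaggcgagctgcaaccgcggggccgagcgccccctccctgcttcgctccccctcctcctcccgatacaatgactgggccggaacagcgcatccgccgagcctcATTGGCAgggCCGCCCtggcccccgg
Frmd4b, internal start 130 kb into the gene (chr6:97487771-97488070, minus strand): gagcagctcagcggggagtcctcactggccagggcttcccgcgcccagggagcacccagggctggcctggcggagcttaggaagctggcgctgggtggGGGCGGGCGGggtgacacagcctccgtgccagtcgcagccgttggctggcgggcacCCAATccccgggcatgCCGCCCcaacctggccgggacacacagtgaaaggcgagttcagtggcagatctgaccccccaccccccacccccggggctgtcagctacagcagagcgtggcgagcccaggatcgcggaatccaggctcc
Frmd4b, internal start 158 kb into the gene (chr6:97459237-97459536, minus strand): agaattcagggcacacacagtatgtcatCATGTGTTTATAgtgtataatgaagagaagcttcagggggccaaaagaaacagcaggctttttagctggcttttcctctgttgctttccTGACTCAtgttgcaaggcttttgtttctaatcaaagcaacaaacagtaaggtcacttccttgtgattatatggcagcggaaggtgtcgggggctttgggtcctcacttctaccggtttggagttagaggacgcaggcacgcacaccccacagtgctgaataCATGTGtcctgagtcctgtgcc
Limch1, first listed start (chr5:66745639-66745938, plus strand): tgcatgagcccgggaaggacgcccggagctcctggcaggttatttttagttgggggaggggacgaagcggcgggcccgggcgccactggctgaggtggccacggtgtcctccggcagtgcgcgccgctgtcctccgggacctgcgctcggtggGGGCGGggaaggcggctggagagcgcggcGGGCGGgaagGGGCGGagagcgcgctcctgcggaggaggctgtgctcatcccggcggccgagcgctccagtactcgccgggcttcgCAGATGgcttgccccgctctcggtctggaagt
Limch1, internal start 112 kb into the gene (chr5:66857219-66857518, plus strand): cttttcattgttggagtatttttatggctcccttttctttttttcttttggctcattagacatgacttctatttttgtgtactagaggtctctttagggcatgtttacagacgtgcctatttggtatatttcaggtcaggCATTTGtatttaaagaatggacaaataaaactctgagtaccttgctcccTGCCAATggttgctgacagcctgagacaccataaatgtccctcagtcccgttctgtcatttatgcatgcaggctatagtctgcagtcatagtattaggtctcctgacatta
Limch1, internal start 223 kb into the gene (chr5:66968178-66968477, plus strand): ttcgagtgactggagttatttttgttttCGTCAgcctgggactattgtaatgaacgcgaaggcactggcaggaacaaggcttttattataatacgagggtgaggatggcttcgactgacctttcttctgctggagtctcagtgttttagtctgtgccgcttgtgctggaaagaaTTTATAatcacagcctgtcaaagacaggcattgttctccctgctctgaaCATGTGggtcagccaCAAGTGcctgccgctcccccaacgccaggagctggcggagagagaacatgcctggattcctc
Btg1 (chr10:96616751-96617050, plus strand): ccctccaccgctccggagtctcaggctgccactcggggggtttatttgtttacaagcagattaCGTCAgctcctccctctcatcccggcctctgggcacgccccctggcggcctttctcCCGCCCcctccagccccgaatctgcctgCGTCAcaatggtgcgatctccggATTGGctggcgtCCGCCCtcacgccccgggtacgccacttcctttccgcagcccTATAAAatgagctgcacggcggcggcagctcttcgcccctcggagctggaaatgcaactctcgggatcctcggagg
Hspb3 (chr13:113663627-113663926, minus strand): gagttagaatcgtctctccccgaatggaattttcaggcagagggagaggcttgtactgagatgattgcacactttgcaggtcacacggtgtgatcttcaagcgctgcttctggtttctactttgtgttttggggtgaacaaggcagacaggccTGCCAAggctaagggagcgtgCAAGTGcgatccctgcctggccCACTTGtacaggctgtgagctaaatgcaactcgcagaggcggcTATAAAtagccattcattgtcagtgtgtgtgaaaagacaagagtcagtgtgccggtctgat

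The printed starts differ in base composition. The first listed starts of 9 genes had a median of 64.7% G and C and 25 CpG, with a range from 47.7% to 73.7% and from 6 to 40 CpG. The 7 later starts of Chn2, Frmd4b and Limch1 had a median of 48.7% and 5 CpG, and among all 32817 RefSeq mouse promoters of this length the medians were 52.7% and 7. A TATA box lay at -26 from the Btg1 start and at -11 from the Hspb3 start, and 13.6% of all promoters hold this motif anywhere in the window, against 5 of the 16 starts of these genes. The AP-1 motif was found at the Frmd4b start 158 kb into the gene and at no other of the 16, and 7.81% of all promoters hold it. The NFI-type motif was in 5 of the 16 starts and 14.1% of all promoters, SP1 in 6 and 35.6%, CRE-type in 3 and 20.8%, the CCAAT box in 6 and 37.4%, the E-box in 10 and 72.3%, and TAATTA in 0 and 5.30%. SP1 matches overlap each other at the Frmd4b start 130 kb into the gene, and NFI-type and CCAAT matches overlap at the first Frmd4b start and at the Limch1 start 112 kb into the gene. Matches of letters are descriptions and do not show binding.

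All 10 genes had a peak in all 3 libraries within 1 kb of a start, for Lpl within 1 kb of a gene end, as had 65.0% of all genes with a listed start. The same 10 had one within 100 bp. The fold values that follow are the authors' own enrichment at each peak's summit, given per library. The whole lists had median folds of 3.82 (CPN 1), 3.68 (CPN 2) and 2.86 (CSMN), so a lower fold in CSMN at a single region is not read as a difference. Btg1, which encodes an antiproliferative partner of the CCR4-NOT deadenylase, led the starts in every library, with 15.6 in CPN 1 and 15.3 in CPN 2, against 14.2 in CSMN. Hspb3, which encodes a small heat shock protein, had 14.3 in CPN 1 and 14.3 in CPN 2, against 6.25 in CSMN. The start of Hspb3 stood beside that of Btg1 in the callosal lists and far under it in the corticospinal list. In CSMN all other first listed starts, at most 9.29, also stood far under Btg1, and this is not read as a difference. Among the other first listed starts, the folds of CPN 1 ran from 8.72 at Limch1 to 11.2 at Frmd4b, those of CPN 2 from 7.10 at Limch1 to 12.4 at Nectin3, and those of CSMN from 6.89 at Ptn to 9.29 at Inhba. Lpl had the lowest folds, with 6.32 and 6.84 in CPN 1 and CPN 2, against 5.19 in CSMN.

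**Figure D1:**
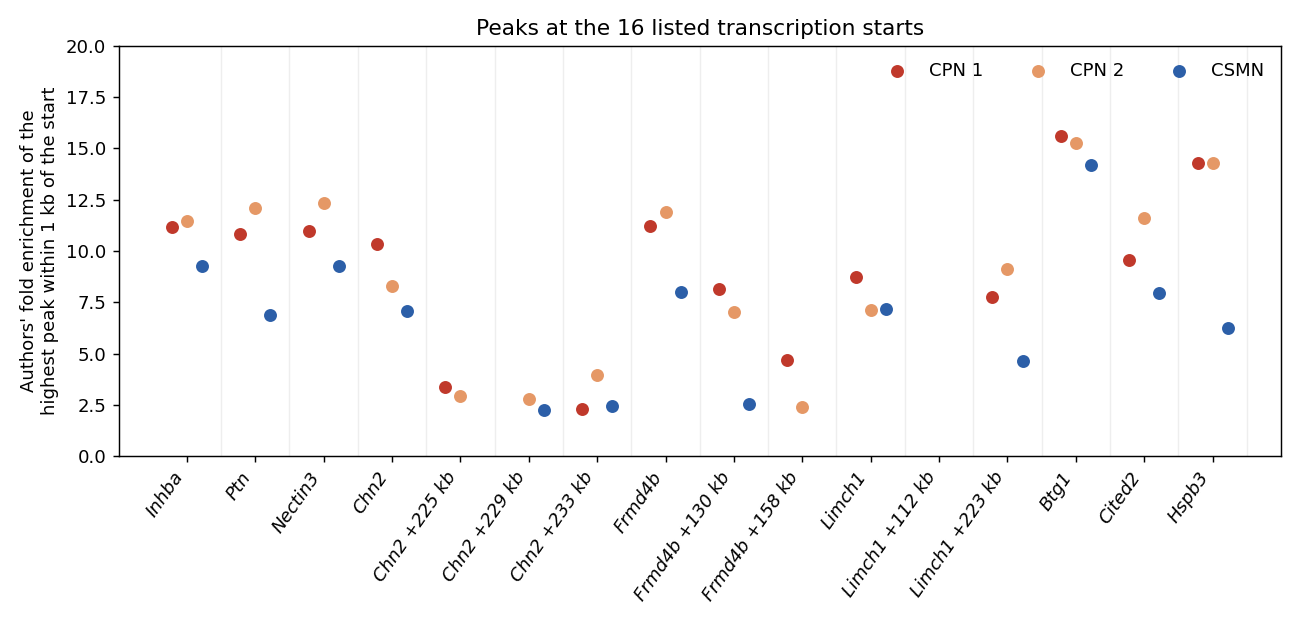
Authors' fold enrichment of the highest peak within 1 kb of each of the 16 listed starts of 9 genes (vertical axis, no unit) in CPN 1, CPN 2 and CSMN; each point is 1 library, kb labels give the distance of a later start into the gene, and a missing point means no peak. The Frmd4b start at 158 kb and the Chn2 start at 225 kb have points for CPN 1 and CPN 2 and none for CSMN, and the Limch1 start at 112 kb has no point. The CPN 1 point of 4.67 at the Frmd4b start at 158 kb is a neighbouring peak, 992 bp from the start.

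Internal starts were less even. Of the 16 listed starts, 12 had a peak in all 3 libraries (64.5% of all listed starts), 2 had one in both CPN libraries and not in CSMN (2.98%), 1 in CPN 2 and CSMN, and 1 in no library (27.3%). Both starts with callosal peaks alone were internal ones of long genes. At the Frmd4b start 158 kb into the gene, a region at 97459193 to 97459517 covered the start base where CPN 1 reached a fold of 2.65 and CPN 2 of 2.38, and CSMN had no peak within 1 kb. At the Chn2 start 225 kb into the gene, the nearest peaks had folds of 3.35 in CPN 1 and 2.92 in CPN 2 and did not cover the start base. These were weak peaks in both callosal lists.

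The Frmd4b start 130 kb into the gene was open in all 3 libraries and stood lower in CSMN relative to the first start. Its fold was 8.12 in CPN 1 and 7.03 in CPN 2, against 2.55 in CSMN. Set against the first Frmd4b start of the same library, this was 0.723 in CPN 1 and 0.590 in CPN 2, against 0.319 in CSMN. CPN 1 and CPN 2 peaks covered the start base itself, while neither of the 2 CSMN peaks in this region did. The Limch1 start 223 kb into the gene had folds of 7.73 and 9.13 in CPN 1 and CPN 2, against 4.63 in CSMN, or 0.887 and 1.29 of the first Limch1 start in the callosal libraries, against 0.644 in CSMN. At these internal starts the corticospinal ratio was below both callosal ratios. The comparison rests on 1 CSMN library, and the last listed start of Chn2 did not share the order, with ratios of 0.224 and 0.476 in CPN 1 and CPN 2, against 0.344 in CSMN.

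Over all positions, 75 of the 227 regions had a peak in all 3 libraries, which is 33.0% (Wilson 95% interval 27.2 to 39.4, counting error only), against 32.4% of the regions in the windows of all protein-coding genes. CPN-only regions, called in CPN 1 and in CPN 2 but not in CSMN, numbered 54, or 23.8% (18.7 to 29.7), against 19.5% at all genes. CSMN-only regions, called in CSMN but in no callosal library, numbered 11, or 4.85% (2.73 to 8.47), against 9.41%. CPN 1 alone had 27 regions (11.9%, against 13.2%) and CPN 2 alone 48 (21.1%, against 21.5%), and CSMN shared 6 regions with CPN 1 only (2.64%, against 1.86%) and 6 with CPN 2 only (2.64%, against 2.16%). The share of callosal regions was therefore close to the background, whose value lies inside the interval. The share of corticospinal regions lay below the background, which is outside its interval. This interval does not cover the spread between genes or libraries. At the 3 longest genes the CSMN-only share was 3.09% of 162 regions, and at the other 7 genes 9.23% of 65, near the background. Without the weak peaks the order of these genes and the background turned. With peaks of −log10 q of at least 5 alone, CSMN-only regions made up 3.45% at these genes (5 of 145 regions), against 2.62% at all genes. Without CPN 1, regions of the remaining callosal library not found in CSMN numbered 106 (51.7%, against 48.0% at all genes). CSMN-only regions then numbered 17 (8.29%, against 13.1%). Without CPN 2 these counts were 81 (45.3%, against 41.8%) and 17 (9.50%, against 14.8%). With lists of equal length there were 30 CPN-only and 20 CSMN-only regions, or 19.0% and 12.7%, against 16.2% and 18.7% at all genes.

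**Figure D2:**
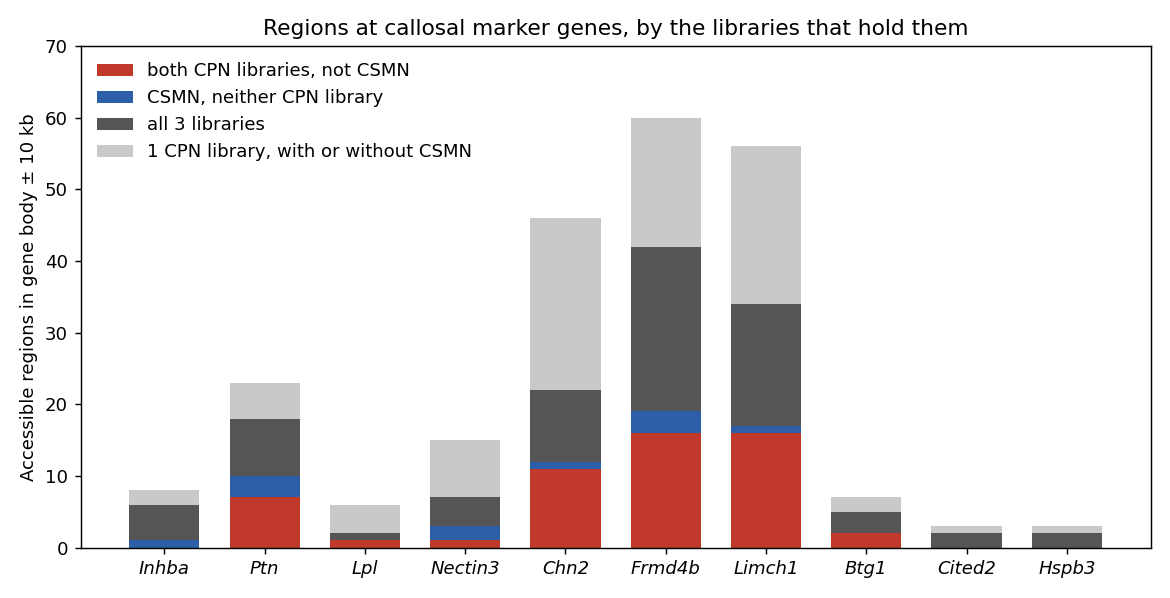
Number of accessible regions in the gene body plus 10 kb on either side (vertical axis) at each of the 10 genes, stacked by the libraries that hold them. Chn2, Frmd4b and Limch1 hold 46, 60 and 56 of the 227 regions, and CPN-only regions outnumber CSMN-only regions at 6 genes.

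More CPN-only than CSMN-only regions were found at 6 of the 10 genes (Ptn, Lpl, Chn2, Frmd4b, Limch1 and Btg1), against 44.2% of all genes with a region. The reverse was found at Inhba and Nectin3, against 16.9%, and equal counts at Cited2 and Hspb3, against 38.9%. The longest genes held most of the CPN-only regions, though Btg1 and Lpl are short and Nectin3, with more CSMN-only regions, is 110.9 kb long. Chn2, Frmd4b and Limch1, the 3 longest genes, held 43 of the 54 CPN-only and 5 of the 11 CSMN-only regions, and among all genes of at least 100 kb 67.0% had more CPN-only regions. At those 3 genes 26.5% of 162 regions were CPN-only and 3.09% CSMN-only, at the other 7 genes 16.9% and 9.23% of 65. Over the 4 genes of at least 100 kb the shares were 24.9% and 3.95% of 177 regions, against 21.5% and 10.2% at all genes of that length.

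CPN-only regions lay mostly in gene bodies, as did the regions of all kinds together (182 of 227). Of the 182 regions in gene bodies more than 1 kb from a start, 46 were CPN-only (25.3%), 9 CSMN-only (4.95%) and 55 in all 3 libraries (30.2%). Of the 24 regions within 1 kb of a start, 5 were CPN-only (20.8%), 1 CSMN-only (4.17%) and 14 in all 3 (58.3%). Of the 21 in the flanks the counts were 3 (14.3%), 1 (4.76%) and 6 (28.6%). Across all genes, CPN-only regions made up 7.82% of regions within 1 kb of a start and 21.3% of those farther away, CSMN-only regions 3.70% and 10.2%, and regions of all 3 libraries 74.6% and 26.2%.

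Among the secreted factors, Inhba encodes the βA subunit of activin and inhibin (mm10 chromosome 13, 16004256 to 16031609, plus strand). It had 5, 8 and 6 peaks in CPN 1, CPN 2 and CSMN. Of its 8 regions 5 were open in every library and none was CPN-only. A narrow region at 16005584 to 16005811, upstream of the listed start and inside the annotated gene body, had folds of 9.60 and 15.3 in CPN 1 and CPN 2, against 7.55 in CSMN. It was the strongest region of Inhba in CPN 2, while the start region was the strongest in CPN 1 and CSMN. The CSMN-only region of Inhba lay beyond the 3′ end of the gene at 16032931 to 16033350, with a fold of 2.95 and a −log10 q of 5.88, and was the strongest of the 11 CSMN-only regions by fold.

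Ptn encodes pleiotrophin, a heparin-binding growth factor (chromosome 6, 36714924 to 36810179, minus strand). It had 17, 18 and 11 peaks in CPN 1, CPN 2 and CSMN, forming 23 regions, of which 8 were in all 3 libraries, 7 CPN-only and 3 CSMN-only. The strongest region in every library lay upstream of the gene at 36818876 to 36820036, with folds of 11.5 and 13.8 in CPN 1 and CPN 2, against 8.07 in CSMN. Its leading CPN-only region, 15968 bp into the gene at 36793801 to 36794211, had folds of 4.93 and 6.23, above the other 6. A body region at 36754892 to 36755800 had 11.4 in CPN 1 and 10.2 in CPN 2, close to the start region there, against 3.47 in CSMN, where the start had 6.89. CSMN had a peak of its own 21719 bp into the gene at 36788269 to 36788460, with a fold of 2.91. Ptn thus held regions of both kinds in its gene body.

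Lpl encodes lipoprotein lipase, which releases fatty acids from circulating triglycerides (chromosome 8, 68880555 to 68906932). It had 2, 6 and 2 peaks in CPN 1, CPN 2 and CSMN. Its only region in all 3 libraries was the one at the gene end. The single CPN-only region, at 68882596 to 68883067, had folds of 2.54 and 2.81, and the other 4 regions were peaks of CPN 2 alone with folds from 2.59 to 2.92. Few peaks were therefore shared by the callosal libraries at Lpl.

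Nectin3 encodes an immunoglobulin-like adhesion molecule that binds nectin-1 across cell contacts (chromosome 16, 46387665 to 46498535, minus strand). It was the only one of the 10 genes with more peaks in CSMN than in either callosal library, at 8 and 10 in CPN 1 and CPN 2, against 11 in CSMN. Of its 15 regions 4 were in all 3 libraries, 1 was CPN-only and 2 were CSMN-only. A narrow region of 189 bp at 46487806 to 46487994, inside the gene, matched the start region, with folds of 11.4 and 12.1 in CPN 1 and CPN 2, against 9.46 in CSMN. Downstream of this region CPN 1 had no peak for 75.4 kb and CPN 2 none for 73.1 kb, a stretch in which CSMN had 1 peak, at 46477623 to 46477856, with a fold of 2.17.

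Chn2 encodes β-chimaerin, which switches off the GTPase Rac and responds to diacylglycerol (chromosome 6, 54039932 to 54301812, plus strand). It had 32, 36 and 15 peaks in CPN 1, CPN 2 and CSMN. Of its 46 regions 10 were in all 3 libraries, 11 CPN-only and 1 CSMN-only. A pair of body regions stood out in the callosal lists. The one at 54126371 to 54127786 had folds of 12.8 and 14.3 in CPN 1 and CPN 2, above the start region with 10.3 and 8.30, against 3.99 in CSMN, where the start had 7.07. The one at 54119700 to 54120457 had 10.6 and 12, against 3.64. By the lower of the callosal folds, the strongest CPN-only region of Chn2, at 54074562 to 54074785, had folds of 5.02 and 4.24. It lay in a stretch of 39.8 kb with no CSMN peak, from 54057130 to 54096969, which held 7 regions of the callosal lists, 5 of them CPN-only. How often other genes hold such stretches was not measured.

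Frmd4b encodes a FERM-domain scaffold that binds regulators of Arf GTPases (chromosome 6, 97286867 to 97617657, minus strand). It had the most peaks of the 10 genes, at 45, 55 and 28 in CPN 1, CPN 2 and CSMN. Of its 60 regions 23 were in all 3 libraries, 16 CPN-only and 3 CSMN-only. The strongest CPN-only region, 38899 bp into the gene at 97578104 to 97578758, had folds of 5.85 and 5.83. A run of 3 CPN-only regions within 4.77 kb, from 97457931 to 97462699, surrounded the internal start 158 kb into the gene, and its strongest member at 97457931 to 97458294 had folds of 4.67 and 4.57. Another CPN-only region lay 5750 bp upstream of the first start, with folds of 4.16 and 4.97. The strongest body region in CPN 1, at 97506039 to 97506661, had 13.4 in CPN 1 and 15.1 in CPN 2, against 4.30 in CSMN, where the first start was the strongest region of the gene.

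Limch1 encodes a protein with LIM and calponin homology domains that in human cells activates non-muscle myosin II (chromosome 5, 66745889 to 67057159, plus strand). It had 42, 47 and 20 peaks in CPN 1, CPN 2 and CSMN. Of its 56 regions 17 were in all 3 libraries, 16 CPN-only and 1 CSMN-only. The CPN-only regions at Limch1 included the strongest of all 54 by the lower of the callosal folds. At 66953934 to 66954589, 13839 bp before the internal start 223 kb into the gene, CPN 1 had 7.07 and CPN 2 had 7.51. At 67010948 to 67011862 they had 6.32 and 8.16, and at 66798176 to 66798835 they had 5.57 and 5.91. CSMN had no peak from 66800300 to 66850746, the longest such stretch with CPN-only regions at any of the 10 genes (50.4 kb). It held 9 regions of the callosal lists, 6 of them CPN-only. The CSMN list is the shortest, and such stretches were not measured beyond the 10 genes, so no background stands beside these counts.

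**Figure D3:**
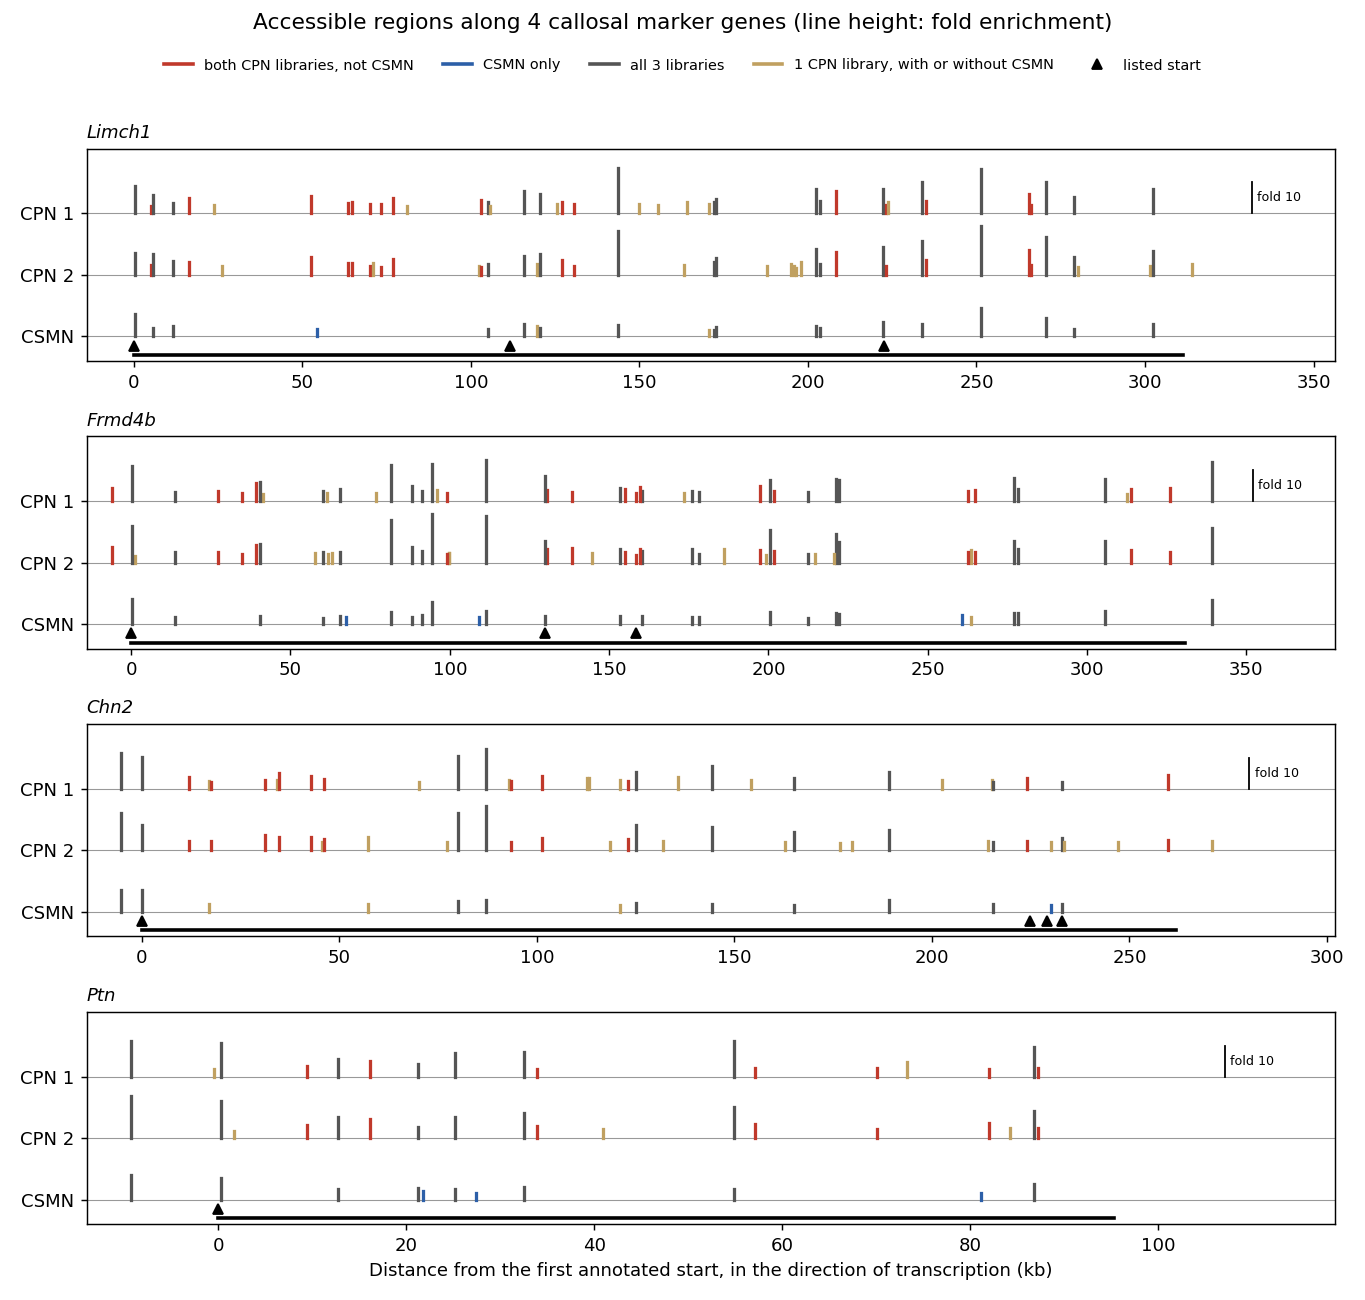
Accessible regions along Limch1, Frmd4b, Chn2 and Ptn by distance from the first annotated start in the direction of transcription (horizontal axis, kb), with a row for CPN 1, CPN 2 and CSMN. Line height is the authors' fold on the scale of the bar marked fold 10. Colour gives the libraries that hold the region, and triangles mark listed starts. The CSMN row of Limch1 is empty for 50.4 kb where 6 CPN-only regions lie, and how often other genes hold such stretches was not measured.

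The nuclear regulators and the chaperone are short genes with few regions. Cited2 encodes a transcriptional coregulator that binds CBP and p300 (chromosome 10, 17723228 to 17725674, plus strand), and 2 of its 3 regions were in all 3 libraries. The region over its start and part of its gene body had folds of 9.57 and 11.6 in CPN 1 and CPN 2, against 7.95 in CSMN. The downstream region at 17733139 to 17733452 had 9.25 and 8.18, against 6.85. Btg1 (chromosome 10, 96617001 to 96622813, plus strand) had 5, 7 and 3 peaks in CPN 1, CPN 2 and CSMN, and its 2 CPN-only regions lay 11736 bp and 15405 bp from the start, beyond the gene, with folds between 2.34 and 3.60. Hspb3 (chromosome 13, 113662896 to 113663676, minus strand) had 3, 2 and 2 peaks in CPN 1, CPN 2 and CSMN, and a further shared region upstream, at 113669640 to 113669991, with folds of 8.10 and 8.91 in CPN 1 and CPN 2, against 4.25 in CSMN. With the full lists and an overlap of at least 1 bp, neither Cited2 nor Hspb3 had a CPN-only or a CSMN-only region.

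The 54 CPN-only regions were moderate in strength. The lower of the callosal folds ran from 2.32 to 7.07 with a median of 3.10, and 30 of the 54 reached a −log10 q of 5 in both CPN 1 and CPN 2. In CPN 1, 70.4% reached it, against 73.1% of CPN-only peaks in the whole list, and in CPN 2 66.7%, against 69.7%. At Lpl, Btg1 and Nectin3, 0 regions were CPN-only with such peaks alone. The 11 CSMN-only regions had CSMN folds from 2.13 to 2.95 with a median of 2.26, and 3 of them (27.3%) reached a −log10 q of 5, against 14.4% in the whole list. These 3 lay at Inhba, Ptn and Frmd4b. Regions in all 3 libraries had median folds of 7.19 and 6.98 in CPN 1 and CPN 2, against 3.64 in CSMN.

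**Figure D4:**
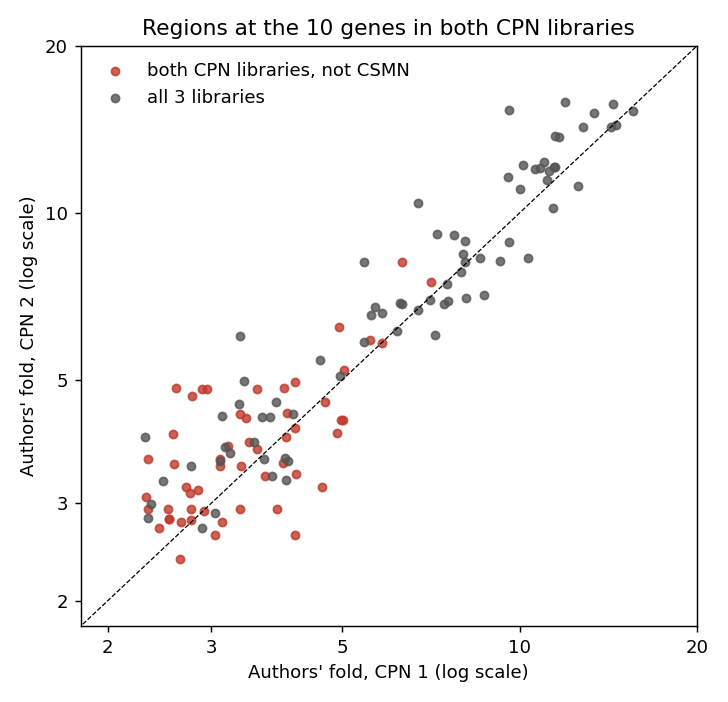
Authors' fold in CPN 1 (horizontal, log scale) against CPN 2 (vertical, log scale) for the 54 CPN-only regions and the 75 regions of all 3 libraries at the 10 genes; each point is 1 region and the dashed line marks equal folds. CPN-only regions lie in the lower part, with medians of 3.35 in CPN 1 and 3.60 in CPN 2, and regions of all 3 libraries reach 15.6 and 15.8.

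Peaks of each callosal library at these genes were found more often in the other callosal list than in the shorter CSMN list, as in the whole lists. Of the CPN 1 peaks 79.6% overlapped a CPN 2 peak and 50% a CSMN peak, against 76.8% and 50.5% over the whole list. Of the CPN 2 peaks 72.0% overlapped a CPN 1 peak and 45.1% a CSMN peak, against 69.7% and 45.5%. CSMN peaks at these genes were found in CPN 1 at 83.2% and in CPN 2 at 83.2% (74.7 to 89.2), above 70.4% and 70.2% over the whole list. In either callosal list, CSMN peaks at these genes were thus found at a higher share than peaks of the other callosal library. With lists of equal length this turned, as CPN 1 held 85.0% of the CPN 2 and 74.3% of the CSMN peaks. CPN 2 then held 80.8% of the CPN 1 and 73.3% of the CSMN peaks. Whole-list shares were not recomputed with lists of equal length, so whether this turn is particular to these genes is not known. Such shares depend on the lengths of the lists, which differ. In the 75 regions of all 3 libraries, summits of CPN 1 and CPN 2 were a median of 20 bp apart, and those of CPN 1 and CSMN 59 bp and of CPN 2 and CSMN 58 bp.

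Because folds differ in scale between the lists, each region of all 3 libraries away from a start was also set against the first start of its gene within the same library. This gave 61 regions at 9 genes, and the ratios of a gene share 1 denominator per library. A distal region exceeded the start in 14 cases (23.0%) in CPN 1 and 14 (23.0%) in CPN 2, against 4 (6.56%) in CSMN. Across all genes the shares were 22.7%, 23.6% and 19.2%, and at genes of at least 100 kb 16.2%, 17.8% and 11.1%. The CSMN ratio was the lowest of the 3 libraries at 38 of the 61 regions (62.3%), against 44.5% of such regions at all genes and 47.2% at long genes. It was the highest at 11 (18.0%), against 35.2% and 31.7%.

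Limch1 contributed most to this. At 14 of its 15 distal shared regions the CSMN ratio was the lowest and at 0 the highest, with median ratios of 0.720 in CPN 1 and 0.930 in CPN 2, against 0.459 in CSMN. The body region at 66889166 to 66889745 had folds of 14.6 and 14.4 in CPN 1 and CPN 2, above the start with 8.72 and 7.10, against 3.82 in CSMN, where the start had 7.18. Another body region, at 66996802 to 66997843, was the strongest of Limch1 in CPN 2 and in CSMN. Its folds were 14.4 and 15.7 in CPN 1 and CPN 2, against 9.24 in CSMN, above the first start in every library. Chn2 had 6 of 8 regions lowest in CSMN, Frmd4b 12 of 21 with 5 highest, and Ptn 4 of 7, while Nectin3 had 0 of 3 with 2 highest. Without Limch1 the count was 24 of 46 (52.2%). The choice of start mattered, as with the last start open in all 3 libraries in place of the first the share lowest in CSMN was 32.8%. At Frmd4b, where that denominator is the start 130 kb into the gene, it was 0 of 21 with 19 highest, at Limch1 7 of 15 and at Chn2 7 of 8. The order of the libraries also turned, as distal regions then exceeded that start at 34.4% in CPN 1 and 31.1% in CPN 2, against 37.7% in CSMN. Shares at all genes were not recomputed with the last start, so these values cannot be placed against those given for the first start.

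**Figure D5:**
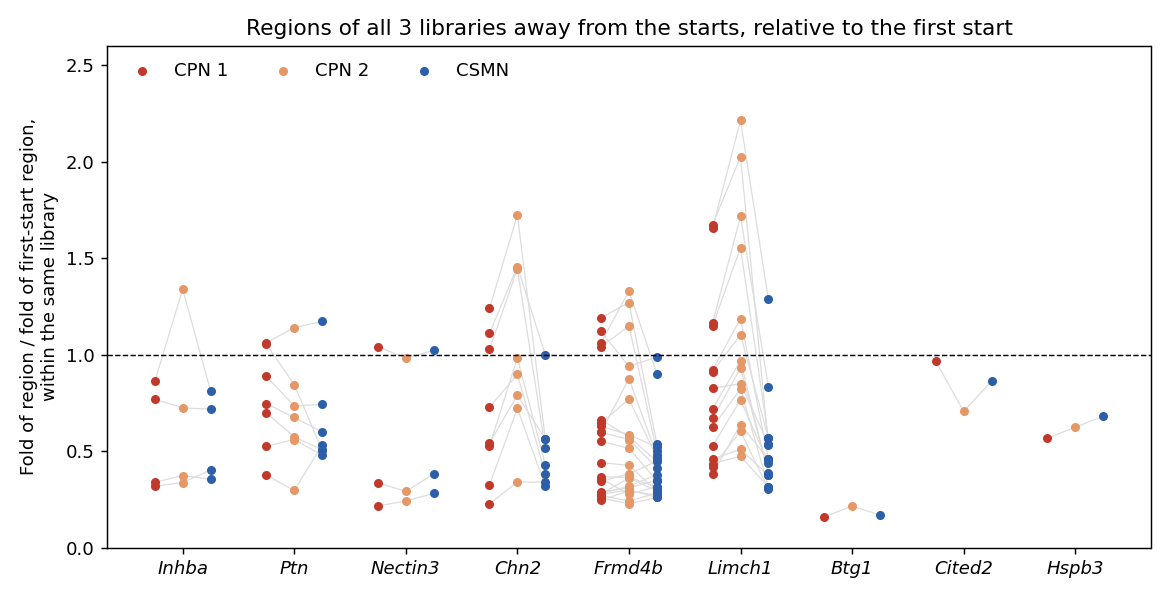
Fold of each distal region of all 3 libraries divided by the fold of the first-start region of the same gene in the same library (vertical axis, no unit), for 61 regions at 9 genes; points of 1 region in CPN 1, CPN 2 and CSMN are joined, and the dashed line marks a fold equal to the start. In CPN 1 and in CPN 2 14 points each lie above the line, against 4 in CSMN.

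The same counts were made for 3 lists of related genes, beside 19.5% CPN-only and 9.41% CSMN-only regions at all genes and 44.2% of genes with more CPN-only regions. Among 8 further callosal markers, 26 of 108 regions (24.1%) were CPN-only and 10 (9.26%) CSMN-only, with more CPN-only regions at 6 genes and more CSMN-only at 2. Gfra2, a receptor of neurturin, had 6 against 1 and Nnmt 4 against 0, while Tmtc4 and Lmo4 each had 0 against 1. Among 11 corticospinal markers, 72 of 319 regions (22.6%) were CPN-only and 23 (7.21%) CSMN-only, with more CPN-only regions at 7 genes and more CSMN-only at 2. The cadherin gene Cdh13 had 30 against 7 and Ldb2 14 against 1, while Opn3 and S100a10 each had 0 against 1.

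Among 27 paralogs and partners of the 10 genes, such as the activin receptors and follistatin for Inhba and the reported pleiotrophin receptors Ptprz1 and Alk for Ptn, 122 of 475 regions (25.7%) were CPN-only and 27 (5.68%) CSMN-only. More CPN-only regions were found at 18 of the 27 and equal counts at 9. Frmd4a, the paralog of Frmd4b, had the largest difference with 35 against 4, followed by Alk with 22 against 7. Equal counts, the smallest difference in this list, were found at Acvr1b with 2 against 2, Acvr2b with 1 against 1, Ptprz1 with 3 against 3 and 6 genes with 0 against 0, Acvr2a, Fst, Angptl4, Hspb1, Cited1 and Cited4. Start peaks were present in all 3 libraries at 24 of the 27 genes, against 65.0% of all genes with a listed start. They were missing from CSMN at Nectin1, the binding partner of nectin-3, and at Hspb2 and Cryab, small heat shock protein genes of the family of Hspb3. Hspb2 and Cryab are neighbours whose windows share regions, so they are not separate cases here or among the 18 genes with more CPN-only regions.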

How the data were processed

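Nuclei from sorted cells were treated with transposase and the resulting fragments amplified, per the labels' protocols. The submitters' processing notes list MACS2 2.2.7.1, BWA 0.7.17, bedtools 2.29.2 and mm10. Duplicate removal, read filters, the shift for the transposase and sequencing depth are not stated there; the number of peaks is the only trace of depth. Each deposited list carries the name of 1 library, so peaks were taken as called per library. The deposited files give for each peak a fold enrichment (a ratio), a −log10 p-value and a −log10 q-value, all the authors' own. The deposited score is 10 times the −log10 q, cut to a whole number, for at least 99.9% of peaks. Folds were used to describe, rank and filter regions within a list.

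Peaks that overlapped by at least 1 bp were merged into regions with Python 3.11.15, pandas 2.3.3 and numpy 2.4.6. Against bedtools 2.31.1, 0 peaks differed in overlap in 6 ordered pairs of lists, and the merging was tested on simulated data. Gene bodies and starts came from RefSeq (GRCm38.p6), and a start region lay within 1 kb of a listed start or, for Lpl, of a gene end. Shares carry Wilson 95% intervals, which cover counting error only. The regions named at a gene were its start, the strongest in CPN 1, up to 3 CPN-only and up to 2 CSMN-only regions by fold, and from each other list the 2 genes at either end of the difference. Regions and genes named beyond these were chosen after their values were seen. The members and lists were chosen with earlier results of these data known. The comparison of distal regions with the first start, and its alternatives, were chosen after seeing the data. The alternatives were peaks of −log10 q of at least 5, lists of equal length, overlap of 0.5 of the shorter peak, other gene windows, leaving out a CPN library and another start. The result for 1 marker gene is not reported here.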

Additional observations from a re-analysis of the deposited data

How the results depend on the processing

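No paired analysis was possible because the labels give the groups only replicate number 1 in common and no result comes from a test. Without either CPN replicate, a CPN-only region rests on 1 library, and CPN-only regions numbered 81 to 106 and CSMN-only regions 17 in both cases. The CPN-only share was 45.3% to 51.7%, against 41.8% and 48.0% at all genes. The CSMN-only share was 8.29% without CPN 1 and 9.50% without CPN 2, against 13.1% and 14.8% at all genes. With peaks of −log10 q of at least 5, CSMN-only regions numbered 5 (3.45%, against 2.62% at all genes) and the CPN-only share was 30.3% (28.8% at all genes). CPN 1 then held 82.4% of the CPN 2 peaks, and each CPN list held 90.5% of the CSMN peaks. With lists of equal length, which trims only the CPN lists, CPN-only regions numbered 30 and CSMN-only regions 20, and their shares were 19.0% and 12.7%, against 16.2% and 18.7% at all genes. There CSMN held 60% of the CPN 1 and 63.3% of the CPN 2 peaks. CPN 1 held 85.0% of the CPN 2 peaks, and CPN 1 and CPN 2 held 74.3% and 73.3% of the CSMN peaks. Whole-list shares of peaks found in another list were not recomputed with strong peaks alone or with lists of equal length. With 50 kb on either side of each gene, CSMN-only regions numbered 20 (6.41%, against 9.94% at all genes). With the last start open in all 3 libraries as denominator, distal regions exceeded the start at 34.4% in CPN 1 and 31.1% in CPN 2, against 37.7% in CSMN. This turned the order, and 32.8% were lowest in CSMN. No shares at all genes were computed with that denominator. Where values moved, the cause was not tested. The other 85 recomputed values that answer a comparison moved by less than their counting interval or, for counts, by at most 1.5 times. At the limit of 1.5 times, genes with more CPN-only regions fell from 6 of 10 to 4 of 10 with peaks of −log10 q of at least 5. They also fell to 4 of 10 with lists of equal length. The share of all genes was not recomputed under these settings, so these counts cannot be placed against it. Weak peaks limit the results at Lpl, Btg1 and Nectin3, where no CPN-only region was left under either setting. At Cited2, 1 CSMN-only region appeared under both settings. CSMN-only regions at Nectin3 rose from 2 to 7 with lists of equal length. They fell to 1 there with peaks of −log10 q of at least 5.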
